A study of Mus musculus with 2 samples.

Results

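The conjugating enzymes of liver tumors from WT and *Fabp4*-/- mice were compared in 1 RNA-seq library per genotype, as the UDP-glucuronosyltransferase (UGT), cytosolic sulfotransferase (SULT) and soluble glutathione S-transferase (GST) genes. The members were all protein-coding genes of the deposited table with a symbol of the *Ugt1* to *Ugt8*, *Sult* or *Gsta*, *Gstk*, *Gstm*, *Gsto*, *Gstp*, *Gstt* and *Gstz* series, which gave 64 of 48526 genes: 22 UGT, 21 SULT and 21 GST genes. Both genotypes were male mice on a C57BL/6N background, and both received *N*-nitrosodiethylamine (DEN), a liver carcinogen, at 25 mg/kg i.p. at 14 days of age and a high-fat diet from 6 weeks of age for 29 weeks. The controls were littermates, and the knockout is a whole-body one, so it does not separate adipocytes from liver cells as the source of the protein. PolyA RNA was sequenced from liver tumors, and the sources used here do not give the number of mice or tumors behind a library. Because each genotype was sequenced once, differences have no replicate check, no test of genotype was possible, and genotype and the choice of tumor cannot be told apart.

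Conjugation makes drugs, hormones, bile pigments and reactive products water soluble, so that they can leave the hepatocyte in bile or blood. UGT enzymes sit in the endoplasmic reticulum and transfer a sugar from a UDP-sugar, SULT enzymes transfer sulfate from the cofactor PAPS in the cytosol, and GST enzymes join glutathione to electrophiles. Liver is a major site of all 3 families, many GST genes are induced through the transcription factor NRF2, and several members differ between the pericentral and periportal zones of the lobule.

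The summed level of the GST and UGT genes was lower in the *Fabp4*-/- library by TPM (transcripts per 1000000), whereas that of the SULT genes was higher. The GST genes summed to 6227 TPM (WT) and 4217 TPM (*Fabp4*-/-), the UGT genes to 1037 TPM and 748 TPM, and the SULT genes to 288 TPM and 404 TPM. The log2 ratios of these sums, *Fabp4*-/- over WT, were −0.56 for GST, −0.47 for UGT and 0.49 for SULT. The authors' normalised counts, read counts divided by 1 size factor per library, gave 0.01, 0.03 and 1.05. The measures are scaled differently, TPM to the same total in each library. Over the 13557 genes at 1 TPM or more in the higher library, protein-coding or not, the median log2 ratio was −0.46 by TPM and 0.04 by normalised counts. Set against these medians, the GST and UGT sums lay near the bulk of genes by either measure and the SULT sum lay above it.

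**Figure D1:**
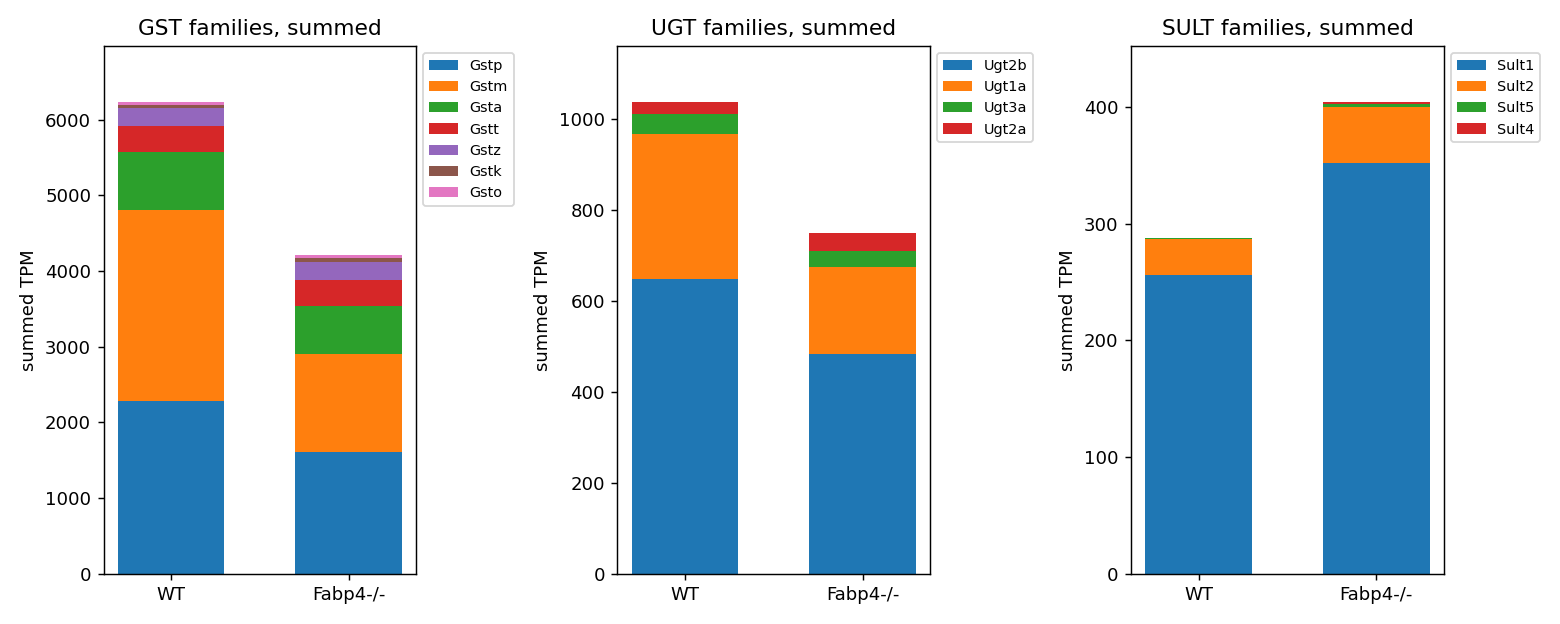
Summed TPM (vertical axis) of the GST, UGT and SULT genes in the WT and *Fabp4*-/- libraries, 1 library each, stacked by subfamily. The GST bar goes from 6227 to 4217 TPM, of which *Gstm* takes 2534 and 1292 TPM, while the SULT bar goes from 288 to 404 TPM.

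Depth was similar, at an estimated 56353700 read pairs (WT) and 59600800 read pairs (*Fabp4*-/-), both to 6 digits. The targeted gene, *Fabp4*, was at 44.1 TPM (WT) and 0.03 TPM (*Fabp4*-/-). Hepatocyte markers were abundant in both libraries, with *Alb* at 49157 TPM and 65262 TPM, and 8 of 8 such markers had a median log2 ratio of 0.31 (TPM) and 0.88 (normalised counts), with summed levels of 91092 TPM and 123160 TPM. Of the T and NK cell markers, 4 of 4 at the minimum were at least 2-fold lower in *Fabp4*-/-, with sums of 45.1 TPM and 3.83 TPM, and 2 of them, *Cd3e* and *Cd8a*, reached 1 TPM only in WT and were bound to differ. Of the pericentral hepatocyte markers 9 of 9 were at least 2-fold lower by TPM (7 by normalised counts), with sums of 3499 TPM and 785 TPM, and for 3 of them, *Axin2*, *Lgr5* and *Tbx3*, the same holds. Of the periportal markers 8 of 8 were at least 2-fold higher by either measure, with sums of 423 TPM and 1649 TPM. For all marker counts here, the shares over all 13557 measured genes were 2.18% higher and 14.2% lower by TPM. By normalised counts these shares were 5.76% and 7.60%. In bulk RNA, fewer cells of a type and less RNA per cell cannot be told apart. Of 5 cholangiocyte markers, 1 was higher and 2 lower by either measure, and the lower ones, *Epcam* and *Krt7*, reached 1 TPM only in WT. Of 5 macrophage markers, 1 was higher by TPM, *Marco*, which reached 1 TPM only in *Fabp4*-/-, and 2 were higher by normalised counts. Of 4 stellate cell markers, 1 was lower by TPM and a different one, *Acta2*, higher by normalised counts, and of 5 endothelial markers, none passed by TPM and 2 were higher by normalised counts. These markers differed between the same libraries as the conjugation genes, and their part in the results was not tested.

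Of the 64 members, 44 reached 1 TPM in the higher library: 19 of 21 GST, 16 of 22 UGT and 9 of 21 SULT genes. The other 20 stayed at or below 0.61 TPM and 31 estimated read pairs, and 6 of them had no read in either library. A gene that reaches the minimum in only 1 library is bound to differ, which applies to *Ugt2b37*, *Ugt2b38*, *Sult4a1* and *Ugt1a7c*. Ratios of single genes below are log2 of (*Fabp4*-/- value + 0.5) over (WT value + 0.5), and a gene is counted as higher or lower from 2-fold. Ratios of sums and values given as folds have no such addition. By TPM, 4 members were higher and 4 lower, beside 2.18% and 14.2% of all 13557 genes, which unlike the members are not limited to protein-coding ones. By normalised counts, 14 were higher and 2 lower, beside 5.76% and 7.60% of all genes. The higher members made up 9.09% of the 44 by TPM and 31.8% by normalised counts, and the lower members 9.09% and 4.55%. The call held by both measures for 6 members, *Gstm2* and *Gstp2* lower and *Ugt1a5*, *Ugt2b37*, *Ugt2b38* and *Ugt3a1* higher, while 13 members had opposite signs by the measures.

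**Figure D2:**
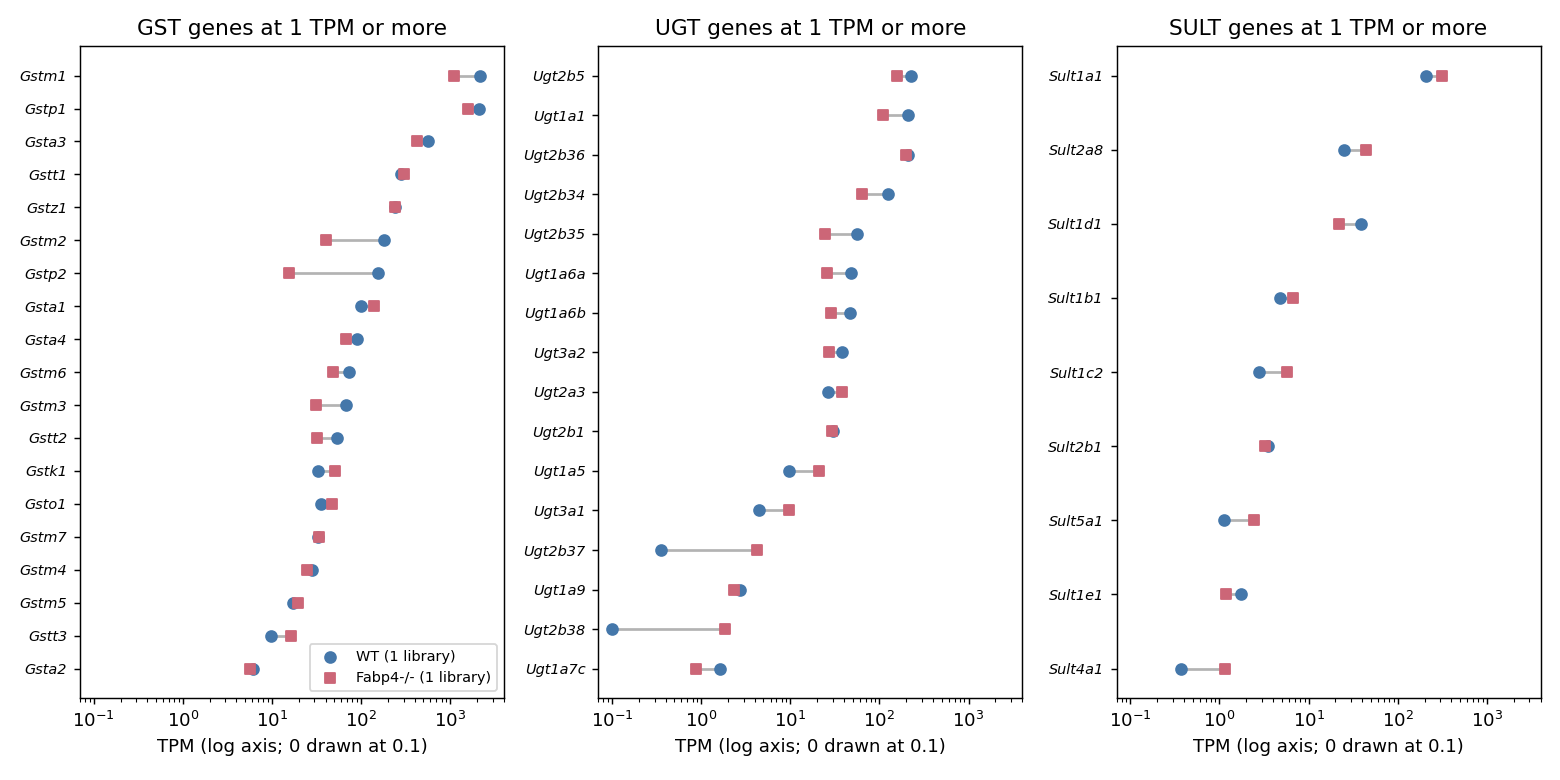
TPM (horizontal log axis) of each GST, UGT and SULT gene at 1 TPM or more, with a circle for the WT library and a square for the *Fabp4*-/- library and no error bars because each genotype has 1 library. The longest distances are those of *Gstp2* (156 to 15.6 TPM), *Gstm2* (180 to 40.5 TPM), *Ugt2b37* (0.35 to 4.21 TPM) and *Ugt2b38* (0 to 1.83 TPM).

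The pi class held the most abundant GST gene of the *Fabp4*-/- library and the member with the lowest ratio of all. *Gstp1*, the main pi enzyme of mouse liver and in rat liver a well-known marker of preneoplastic foci, was at 2119 TPM (WT) and 1592 TPM (*Fabp4*-/-), with log2 ratios of −0.41 (TPM) and 0.16 (normalised counts). Its neighbor *Gstp2* was at 156 TPM and 15.6 TPM, a 10.1-fold lower level by TPM and 6.78-fold by normalised counts. That log2 ratio of normalised counts was −2.76, with a 95% exact binomial CI of −2.90 to −2.63 from 4201 and 482 estimated read pairs, and 0.944% of all measured genes had a lower one. The intervals given here cover counting error only, not variation between tumors or the division of shared reads between genes. *Gstp1* (ENSMUSG00000060803.5) lies on chromosome 19 of mm10 from 4035407 to 4037921 and *Gstp2* (ENSMUSG00000038155.10) from 4040285 to 4042236. Their mRNAs are alike: 38.4% of the stretches of 100 bases in *Gstp1* transcripts were also found in *Gstp2*, and 35.9% of those of *Gstp2* were found in *Gstp1*. Reads from such stretches are divided between the genes by estimate. Summed, both genes were at 2276 TPM (WT) and 1608 TPM (*Fabp4*-/-), with log2 ratios of −0.50 (TPM) and 0.07 (normalised counts), so the difference in *Gstp2* was not seen in the sum, most of which is *Gstp1*.

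The promoters of this pair are shown because the genes stood apart in ratio while their upstream sequences are close. Over 235 aligned bases 208 were identical (88.5%). Each sequence gives the 250 bases before the RefSeq transcript start on the minus strand of GRCm38.p6, at chr19:4037913-4038162 for *Gstp1* and chr19:4042222-4042471 for *Gstp2*, 5′ to 3′, with capitals for bases that differ from the other gene or have no aligned partner there.
Gstp1: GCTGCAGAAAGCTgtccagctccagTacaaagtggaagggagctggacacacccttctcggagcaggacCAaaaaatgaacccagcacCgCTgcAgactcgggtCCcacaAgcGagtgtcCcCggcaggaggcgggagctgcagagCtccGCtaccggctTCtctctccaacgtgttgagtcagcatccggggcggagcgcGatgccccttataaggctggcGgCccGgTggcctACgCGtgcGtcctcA
Gstp2: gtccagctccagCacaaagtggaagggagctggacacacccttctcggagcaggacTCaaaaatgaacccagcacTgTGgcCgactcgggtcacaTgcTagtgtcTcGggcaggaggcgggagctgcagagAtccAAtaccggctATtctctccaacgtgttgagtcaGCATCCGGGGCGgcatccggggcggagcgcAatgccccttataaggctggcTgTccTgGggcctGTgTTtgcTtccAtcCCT
The letters TGANTCA, the AP-1 site, are in both, starting 74 bases before the *Gstp1* start and 89 bases before the *Gstp2* start. This motif was chosen after the sequences were seen, and 7.82% of 27025 genes hold it on either strand of a window of this length. The core dioxin response element GCGTG is in *Gstp1* 13 bases before the start and not in these letters of *Gstp2*, beside 30.9% of all genes.

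The mu class accounted for most of the lower GST sum by TPM. The *Gstm* genes summed to 2534 TPM (WT) and 1292 TPM (*Fabp4*-/-), with log2 ratios of −0.97 (TPM) and −0.40 (normalised counts). *Gstm1*, the main mu enzyme of mouse liver, which conjugates epoxides and other electrophiles, was at 2134 TPM (WT) and 1094 TPM (*Fabp4*-/-). Its log2 ratios were −0.96 and −0.41, and 21.1% of all measured genes had a lower ratio by the latter. *Gstm2* was at 180 TPM and 40.5 TPM, 4.45-fold lower by TPM, with a log2 ratio of −1.58 by normalised counts (95% CI −1.66 to −1.51). *Gstm3* was at 67.7 TPM and 31.3 TPM, with log2 ratios of −1.10 and −0.55. Shared sequence made up 6.17% of 100-base stretches for *Gstm1*, 0.548% for *Gstm2* and 13.8% for *Gstm3*.

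The 7 *Gstm* genes lie side by side on chromosome 3 between 107895821 and 108044894, within 149 kb, and the lowest ratios were those of neighbors. From the left, *Gstm5* and *Gstm7* had log2 ratios of 0.77 and 0.69 by normalised counts, *Gstm6* and *Gstm3* of −0.07 and −0.55, *Gstm2* of −1.58, and to its right *Gstm1* and *Gstm4* of −0.41 and 0.36. The adjacent genes *Gstm3*, *Gstm2* and *Gstm1* were thus the lowest 3 of the cluster by either measure. The sum of these 3 was 2382 TPM (WT) and 1166 TPM (*Fabp4*-/-), against 152 TPM and 126 TPM for the other 4. This order was noticed in the data and was not tested, and *Gstm4* to *Gstm7* were named after their values were seen.

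**Figure D3:**
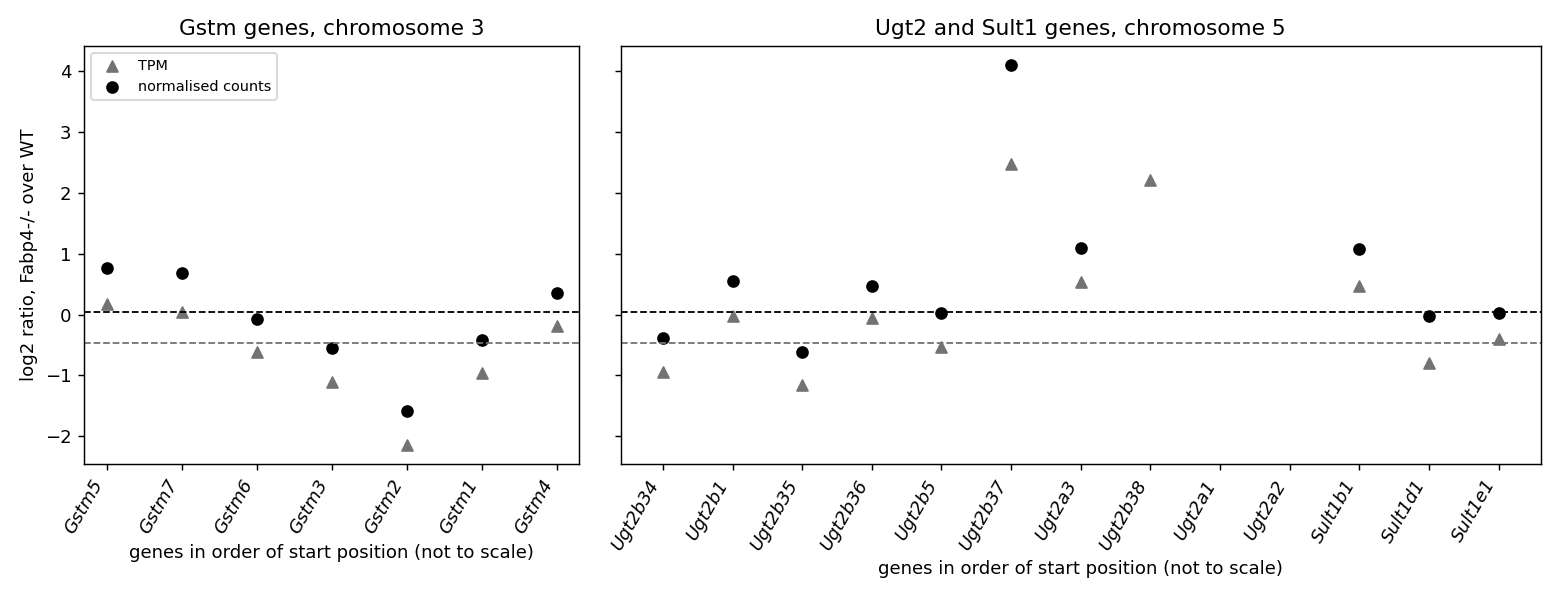
Log2 ratio, *Fabp4*-/- over WT, of the *Gstm* genes of chromosome 3 and the *Ugt2* and *Sult1* genes of chromosome 5 in order of start position (triangles, TPM; circles, normalised counts; dashed lines, the medians of all measured genes, −0.46 and 0.04). *Gstm2* is the lowest point of its cluster at −2.14 by TPM and *Ugt2b37* the highest of the other at 2.47, while *Ugt2b38* has no circle because it had no read in WT, and *Ugt2a1* and *Ugt2a2* were under 1 TPM.

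The alpha class lay near the bulk of genes, apart from *Gsta1*. The 4 *Gsta* genes summed to 762 TPM (WT) and 632 TPM (*Fabp4*-/-). *Gsta3*, the alpha enzyme known in mice for conjugating the epoxide of aflatoxin, was at 567 TPM and 420 TPM, with log2 ratios of −0.43 (TPM) and 0.15 (normalised counts). *Gsta4*, which conjugates hydroxynonenal from lipid peroxidation, was at 88.9 TPM and 67.9 TPM, with log2 ratios of −0.39 and 0.18. *Gsta1* was at 99.3 TPM and 138 TPM, with log2 ratios of 0.47 (TPM) and 1.05 (normalised counts). Of its 100-base stretches 81.8% are shared with other genes, mainly *Gm3776*, which was not found by symbol among the deposited genes. The level of *Gsta1* itself is uncertain, and any division of its reads with *Gm3776* cannot be seen in these values.

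In the remaining classes the named genes were level or higher in *Fabp4*-/-. *Gstk1*, the kappa enzyme of mitochondria and peroxisomes, was at 33.0 TPM (WT) and 50.5 TPM (*Fabp4*-/-) (0.61 by TPM and 1.18 by normalised counts, as log2 ratios). *Gstt3* of the theta class was at 9.79 TPM and 16.4 TPM (0.72 and 1.27), and 18.1% of its stretches are shared. *Gstt1*, a theta enzyme that acts on small halogenated compounds, was at 281 TPM and 300.3 TPM (0.10 and 0.67). *Gstt2* of the same class, which the rule did not name, went the other way, at 53.1 TPM and 31.7 TPM (−0.74 and −0.18). *Gsto1*, an omega enzyme that reduces dehydroascorbate, was at 35.7 TPM and 46.6 TPM (0.38 and 0.97). *Gstz1*, the maleylacetoacetate isomerase of tyrosine breakdown, was at 243 TPM and 240 TPM (−0.02 and 0.54). Of all these, only *Gstk1* and *Gstt3* passed 2-fold, and only by normalised counts. The share of *Gstm1* in GST TPM was 34.3% in WT and 25.9% in *Fabp4*-/-, and that of *Gstp1* 34.0% and 37.8%. The 6 GST genes not named here by the fixed rule had log2 ratios from −0.74 to 0.18 by TPM and from −0.18 to 0.77 by normalised counts.

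**Figure D4:**
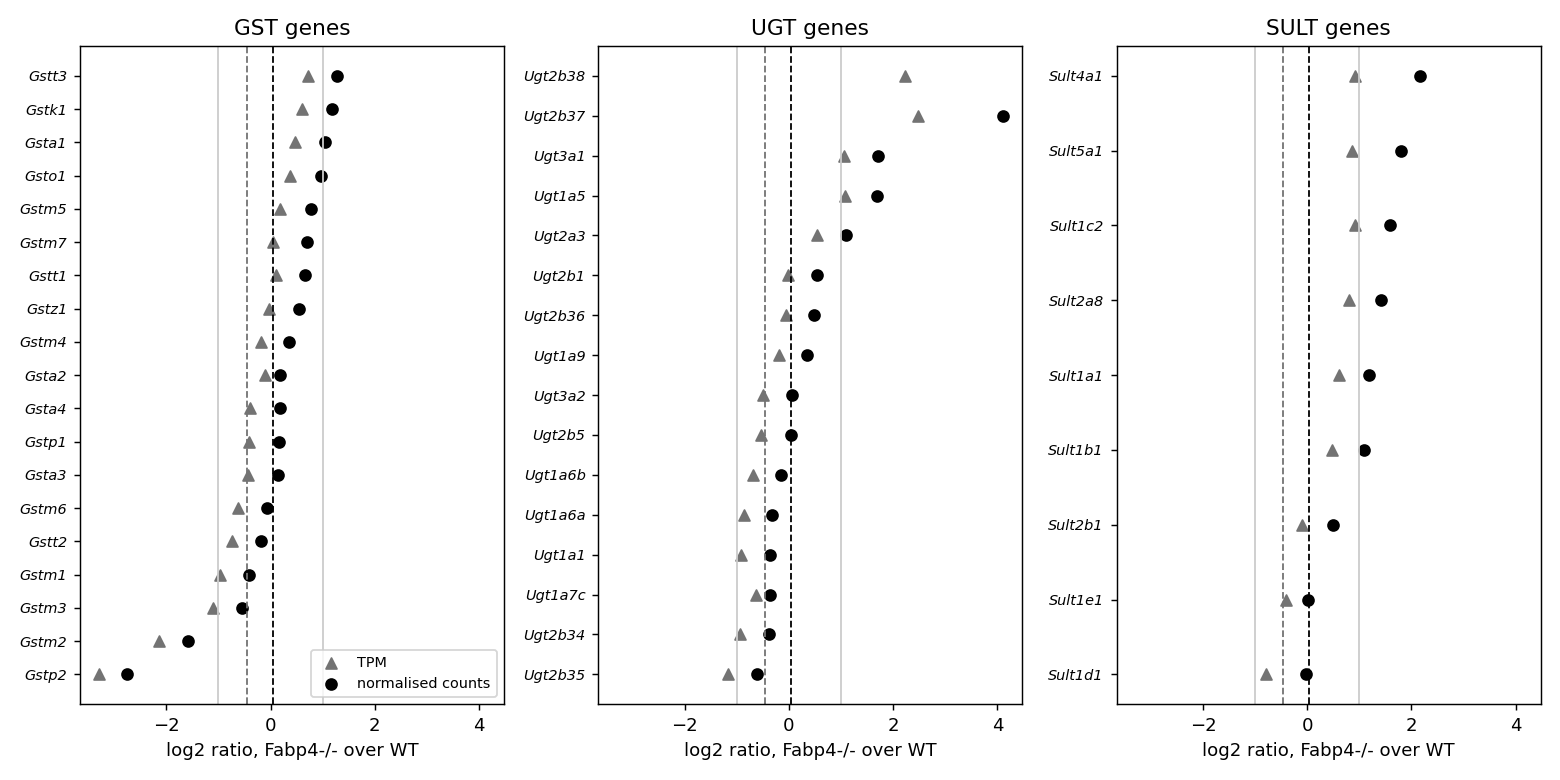
Log2 ratio, *Fabp4*-/- over WT, of each GST, UGT and SULT gene at 1 TPM or more (triangles, TPM; circles, normalised counts; dashed lines, the medians of all measured genes, −0.46 and 0.04; gray lines, 2-fold). *Gstp2* and *Gstm2* lie beyond 2-fold lower and *Ugt2b37*, *Ugt3a1* and *Ugt1a5* beyond 2-fold higher by both measures, *Ugt2b38* has no circle because it had no read in WT, and 6 of 9 SULT circles lie beyond 2-fold higher. *Ugt2b37*, *Ugt2b38* and *Sult4a1* reached 1 TPM only in *Fabp4*-/- and were bound to differ.

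Among the UGT genes, the members higher in *Fabp4*-/- by both measures were scarce ones, each under 10 TPM in WT. The median log2 ratio of the 16 measured UGT genes was −0.34 by TPM and 0.20 by normalised counts, with 4 higher and 1 lower by TPM, beside 2.18% and 14.2% of all genes, and 5 higher and none lower by normalised counts, beside 5.76% and 7.60%. Of the higher genes, *Ugt2b37* and *Ugt2b38* reached 1 TPM only in *Fabp4*-/- and were bound to differ. *Ugt1a1*, the bilirubin-conjugating enzyme, was at 211 TPM (WT) and 111 TPM (*Fabp4*-/-), with log2 ratios of −0.92 and −0.36. *Ugt1a5* was at 9.73 TPM and 21.2 TPM, with log2 ratios of 1.08 and 1.69 and a 95% CI of 1.57 to 1.80 on the latter. The *Ugt1a* genes are alternative first exons spliced to common later exons, and 57.2% of the stretches of *Ugt1a1* and 63.1% of those of *Ugt1a5* are shared within the locus, so the split among them rests on the authors' estimate. Summed, the 9 *Ugt1a* genes were at 320 TPM and 190 TPM, with log2 ratios of −0.75 (TPM) and −0.19 (normalised counts). *Ugt1a5* was thus higher in *Fabp4*-/- while the locus as a whole was lower.

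The *Ugt2b* enzymes conjugate steroids, bile acids and drugs, and their 7 genes summed to 648 TPM (WT) and 483 TPM (*Fabp4*-/-). *Ugt2b36* was at 210 TPM and 201 TPM, with log2 ratios of −0.06 and 0.48. *Ugt2b35* was at 55.5 TPM and 24.5 TPM, with log2 ratios of −1.16 and −0.61. At the other end, *Ugt2b37* was at 0.35 TPM and 4.21 TPM, 17.6-fold higher by normalised counts, from 28.1 and 383 estimated read pairs. Its log2 ratio of normalised counts was 4.11 (95% CI 3.58 to 4.75), and 0.170% of all measured genes had a higher one. *Ugt2b38* was at 0 TPM (WT) and 1.83 TPM (*Fabp4*-/-), from 0 and 167 estimated read pairs. Set against 3 read pairs in the WT library, the limit that a count of 0 allows, this is 71.5-fold higher by normalised counts. That value leaves out counting error in the *Fabp4*-/- library. With it, the 95% exact interval of the log2 ratio had a lower limit of 5.85 and no upper limit.

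These genes belong to a cluster of 13 *Ugt2* and *Sult1* genes on chromosome 5 between 86889767 and 87591594, of which 11 reached the minimum. *Ugt2b37* (ENSMUSG00000057425.3) spans 87240493 to 87254804 and *Ugt2b38* (ENSMUSG00000061906.5) spans 87409942 to 87424203. Between them lies *Ugt2a3*, at 26.2 TPM (WT) and 38.1 TPM (*Fabp4*-/-) with log2 ratios of 0.53 and 1.10. To the left, in genes named after their values were seen except *Ugt2b35* and *Ugt2b36*, the signs were mixed, with *Ugt2b34* at −0.38, *Ugt2b1* at 0.55, *Ugt2b35* at −0.61, *Ugt2b36* at 0.48 and *Ugt2b5* at 0.03 (log2 ratios of normalised counts). *Ugt2b37* shares 1.06% of its stretches with other genes and *Ugt2b38* 24.2%, all of the latter with *Ugt2b5*. Any reads misassigned from *Ugt2b5* to *Ugt2b38* were not measured, and *Ugt2b5* itself was at 229 TPM and 158 TPM.

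The promoters of *Ugt2b37* and *Ugt2b38* are shown because both genes were near 0 in WT and were higher in *Fabp4*-/-. Over 236 aligned bases 225 were identical (95.3%). The sequences are the 250 bases before each RefSeq start on the minus strand of GRCm38.p6, at chr5:87254789-87255038 and chr5:87424204-87424453, 5′ to 3′, with capitals as for the *Gstp* pair.
Ugt2b37: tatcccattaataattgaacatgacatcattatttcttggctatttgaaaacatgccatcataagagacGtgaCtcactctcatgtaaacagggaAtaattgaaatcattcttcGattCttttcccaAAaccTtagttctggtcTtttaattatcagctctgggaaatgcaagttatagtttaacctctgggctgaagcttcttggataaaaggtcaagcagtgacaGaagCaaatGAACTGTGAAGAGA
Ugt2b38: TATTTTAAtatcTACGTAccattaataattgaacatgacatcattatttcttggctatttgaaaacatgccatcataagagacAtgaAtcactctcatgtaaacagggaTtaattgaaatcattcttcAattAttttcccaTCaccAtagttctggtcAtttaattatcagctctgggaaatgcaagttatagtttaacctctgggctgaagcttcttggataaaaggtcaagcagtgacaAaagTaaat
The letters TGANTCA start 180 and 166 bases before these starts. Of the 56 members with a RefSeq promoter, 11 hold this motif in the 250 bases (19.6%, beside 7.82% of all genes), but these include the 4 genes whose promoters prompted the search, so the share is partly fixed by the choice. The motifs chosen without the sequences in view were counted likewise, and 14 members hold the core HNF1 letters GTTAAT (25.0%, beside 7.49%). Among these are *Sult2a3* to *Sult2a6*, all under 1 TPM, and *Ugt1a1*, *Ugt1a6a*, *Ugt1a9* and *Ugt1a10*. Promoters of such related genes are not independent, which the share over all genes does not take into account. The antioxidant response element TGACNNNGC is in 3 members (5.36%, beside 11.5%), *Gsta3*, *Gstm5* and *Gstm7*, and GCGTG in 10 (17.9%, beside 30.9%). All 4 were searched on both strands, and a match of letters is a description of the sequence, not of binding.

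The *Ugt3a* enzymes use sugars other than glucuronic acid in humans. *Ugt3a1* was at 4.45 TPM (WT) and 9.75 TPM (*Fabp4*-/-), with log2 ratios of 1.05 (TPM) and 1.71 (normalised counts). Its neighbor *Ugt3a2* was at 38.5 TPM and 27.0 TPM, with ratios of −0.51 and 0.05. *Ugt8a*, the galactosyltransferase of myelin lipids, was at 0.04 TPM and 0.01 TPM from 7 and 2 estimated read pairs. The 7 UGT genes not named by the rule had log2 ratios from −0.94 to −0.02 by TPM and from −0.38 to 0.55 by normalised counts.

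The SULT genes stood above the bulk of genes. Of the 9 measured SULT genes, 8 were above the all-gene median by TPM and 7 by normalised counts, and their own median was 0.61 by TPM and 1.18 by normalised counts. By TPM 0 of 9 passed 2-fold, beside 2.18% of all genes higher and 14.2% lower, and with a pseudocount of 0.1 in place of 0.5 the 0 became 3, *Sult1c2*, *Sult5a1* and *Sult4a1*. By normalised counts 6 (66.7%) were at least 2-fold higher and 0 lower, beside 5.76% and 7.60% of all genes. *Sult4a1*, counted in both the 6 and the 9, reached 1 TPM only in *Fabp4*-/- and was bound to differ. The hepatocyte markers, at medians of 0.31 and 0.88, were also above the bulk of genes, and their part in the SULT values was not tested. *Sult1a1*, the main phenol sulfotransferase of liver, carried 72.1% of SULT TPM in WT and 78.3% in *Fabp4*-/-. It was at 208 TPM and 316 TPM, with log2 ratios of 0.61 (TPM) and 1.18 (normalised counts, 95% CI 1.15 to 1.21), and 4.29% of all measured genes had a higher ratio by the latter. *Sult1a1* (ENSMUSG00000030711.15) spans 126672865 to 126676432 on chromosome 7, and 1.75% of its stretches are shared with other genes.

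*Sult2a8*, a bile acid sulfotransferase of mouse liver, was at 25.1 TPM (WT) and 43.9 TPM (*Fabp4*-/-), with log2 ratios of 0.79 and 1.42. *Sult1c2* was at 2.81 TPM and 5.73 TPM (0.91 and 1.59), and *Sult1b1*, which acts on thyroid hormones, at 4.72 TPM and 6.71 TPM (0.47 and 1.08). *Sult5a1* was at 1.13 TPM and 2.44 TPM (0.85 and 1.80) and *Sult4a1*, known from brain, at 0.37 TPM and 1.14 TPM (0.91 and 2.15), the latter from 38 and 133 estimated read pairs. The 3 measured SULT genes not named by the rule, *Sult1d1*, *Sult1e1* and *Sult2b1*, had log2 ratios from −0.79 to −0.11 by TPM and from −0.02 to 0.49 by normalised counts. Of these, *Sult1d1*, a catecholamine sulfotransferase in mice, was at 38.9 TPM and 22.2 TPM, and it lies in the same chromosome 5 cluster as *Sult1b1*. The estrogen sulfotransferase gene *Sult1e1* was at 1.74 TPM and 1.19 TPM. *Sult3a2*, of a subfamily found mainly in female mouse liver, had 0 and 2 estimated read pairs.

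The 70 measured genes that supply the cofactors, export the conjugates or control these families are described by list. By TPM 0% were higher and 7.14% lower, beside 2.18% and 14.2% of all genes, and by normalised counts 5.71% and 4.29%, beside 5.76% and 7.60%. Of 7 measured genes for UDP-glucuronic acid supply and glucuronide removal, 0 passed 2-fold by either measure, with medians of −0.17 by TPM and 0.37 by normalised counts. *Ugp2*, which makes UDP-glucose, was at 250 TPM (WT) and 228 TPM (*Fabp4*-/-). Of 10 PAPS and sulfate genes (medians −0.26 and 0.30), 0 passed by TPM and 1 was higher by normalised counts, the sulfate transporter gene *Slc26a1*, at 21.6 TPM and 29.1 TPM. Of 15 glutathione genes (medians −0.37 and 0.18), 1 was lower by TPM, and by normalised counts 1 was higher and 1 lower. The gene lower by both was *Slc7a11*, the cystine importer that feeds glutathione synthesis, at 4.25 TPM and 1.02 TPM, a log2 ratio of −1.64 by TPM. The gene higher by normalised counts was *Chac1*, at 3.96 TPM and 5.54 TPM, with log2 ratios of 0.44 (TPM) and 1.05 (normalised counts). The most abundant, the glutathione peroxidase gene *Gpx1*, was at 796 TPM and 670 TPM.

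Of 10 other glutathione transferases and relatives (median log2 ratios −0.41 by TPM and 0.15 by normalised counts), 2 were lower by TPM and 1 by normalised counts, with none higher. *Mgst2*, a membrane-bound transferase, was lower by both, at 1.78 TPM (WT) and 0.62 TPM (*Fabp4*-/-), but it reached the minimum only in WT and was thus bound to differ, whereas the abundant *Mgst1* was at 1826 TPM and 1548 TPM. Of 8 genes for export of conjugates (medians −0.53 and 0.02), 1 was lower by TPM, and by normalised counts 1 was higher and 1 lower. The exporter *Abcc4* was lower by both, at 6.73 TPM and 1.17 TPM, and *Abcc2*, the canalicular exporter of glucuronides and glutathione conjugates, was at 179 TPM and 115 TPM. The gene higher by normalised counts was *Abcg2*, at 14.4 TPM and 19.3 TPM, with log2 ratios of 0.41 (TPM) and 1.08 (normalised counts). Of 20 transcription factors of drug metabolism (medians −0.51 and −0.01), 1 was lower by TPM and 1 higher by normalised counts, both named after their values were seen. The lower one was *Ahr*, the dioxin receptor, at 10.7 TPM and 4.45 TPM, with log2 ratios of −1.17 (TPM) and −0.76 (normalised counts). The higher one was *Cebpa*, a hepatocyte transcription factor, at 108 TPM and 155 TPM, with log2 ratios of 0.53 and 1.08. *Hnf4a*, the most abundant factor in WT and by the mean of both libraries, was at 171 TPM and 134 TPM.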

How the data were processed

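PolyA RNA of liver tumors was sequenced by the authors from both ends, 1 library per genotype. STAR (2.5.2), RSEM (1.2.31) and mm10 are listed in the submitters' processing notes, and their settings, annotation and strand option were not given in the sources used here. TPM values deposited by the authors sum to 1000000 per library. The authors' normalised counts, a signal on a read scale, are read counts divided by 1 size factor per library. The authors' own fold changes, posterior probabilities and FDR stand in the same table and were not used. Dividing normalised counts by their commonest nonzero value, 0.882 in WT and 1.13 in *Fabp4*-/-, gave estimated read pairs, of which 86.0% and 86.4% were whole to within 0.0001.

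Ratios of single genes used a pseudocount of 0.5 on either scale, and calls and medians required 1 TPM in whichever library was higher. Ratios of sums and values given as folds used no pseudocount, and the sums took in members under the minimum. Exact (Clopper-Pearson) binomial 95% confidence intervals came from estimated read pairs, rounded to whole numbers, and cover counting error only. Amplified copies are not told apart, so even that error may be understated. The uncertainty of dividing shared reads between genes is not covered. Ratios, calls and intervals were run on simulated independent Poisson counts with known folds. These hold no variation between tumors, no amplified copies and no division of shared reads, so they check the calculation only. Sharing between genes was the percentage of distinct 100-base stretches of a member's protein-coding transcripts in GENCODE M21 that another gene's transcripts also hold. GENCODE M21 holds all 64 members, 54 of them at an identical position. Promoter sequences are those of RefSeq on GRCm38.p6, matched by symbol, and pairs were aligned end to end with Biopython.

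The members and the 6 lists of 83 cofactor, export and regulator genes were chosen with earlier results of these data known. Named were *Gstm1*, *Gsta4* and *Sult1a1*, members at least 2-fold different by either measure, and the most abundant member of each subfamily, 30 in all. Of the lists, the most abundant gene and those past 2-fold by both measures were named, and a few others were chosen after their values were seen. Alternatives were normalised counts, median centring, pseudocounts of 0.1 and 1, no minimum or 5 TPM, a 1.5-fold threshold and the *Ugt1a* genes as 1 sum. Tables were handled with pandas 2.3.3 and numpy 2.4.6 in Python 3.11.15, intervals computed with scipy 1.17.1 and plots drawn with matplotlib 3.10.9.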

Additional observations from a re-analysis of the deposited data

Results flagged for a closer look

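Beside the 64 protein-coding members, 7 genes of the table carry a family symbol but are pseudogenes, and 1 of these had more than 3 estimated read pairs. *Gstm2-ps1*, a processed pseudogene on chromosome 5, was assigned an estimated 14 (WT) and 45 (*Fabp4*-/-) read pairs, at 0.65 TPM and 1.82 TPM. It was picked out because it lies outside the comparisons above and exceeds the limit that a count of 0 allows. Of the 100-base stretches of *Gstm1*, 2.75% are also in this pseudogene.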

How the results depend on the processing

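No paired analysis was possible because there was only 1 library for either genotype. The 4 members at least 2-fold higher became 14 by normalised counts, 11 with median centring, 7 with a pseudocount of 0.1, 2 with a minimum of 5 TPM and 11 at 1.5-fold, and the 4 lower became 2 by normalised counts, 2 with median centring and 13 at 1.5-fold. By normalised counts the family medians were 0.20 (UGT), 1.18 (SULT) and 0.18 (GST), and with median centring 0.12, 1.07 and 0.28. The UGT median was −0.072 with no minimum, −0.52 with 5 TPM and −0.061 with *Ugt1a* summed, and with *Ugt2b38* at its bound it was 0.20 by normalised counts. The SULT median was 0 with no minimum, where the genes near 0 enter. The ratios of sums were 0.028 (UGT), 1.05 (SULT) and 0.010 (GST) by normalised counts and −0.0098, 0.95 and −0.10 with median centring. Of the cofactor, export and regulator genes, the 0 higher became 4 by normalised counts, and the 5 lower became 3 by normalised counts, 2 with median centring, 3 with a pseudocount of 1, 2 with 5 TPM and 23 at 1.5-fold. For member and list counts alike, shares over all genes were taken only at 2-fold by TPM and by normalised counts. Counts under the other settings have no such share beside them and are not results about these genes. Median centring subtracts 1 constant, so it moves all ratios alike. For the other changes the cause was not tested. Of the 22 named members under 2-fold by TPM, 7 changed sign in at least 1 alternative (12 of 88 values, 6 by normalised counts and 6 with median centring). *Gstm2*, *Gstp2*, *Ugt1a5*, *Ugt2b37* and *Ugt2b38* passed 2-fold in 4 of 4 alternatives of scale and pseudocount, and *Ugt3a1* in 3. At this depth, ratios of scarce members such as *Ugt2b37* and *Sult4a1* are known only within a wide counting interval, and levels of paralogs that share sequence also rest on the division of reads.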
